A study of Mus musculus with 12 samples.

Results

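Targets of the peroxisome proliferator-activated receptors (PPARs) and fatty acid oxidation were followed through 8 genes on 10 array probes: Angptl4, Pdk4, Cpt1a, Cpt1b, Acadm, Ucp3, Ppara and Ppard. All probes carrying these gene names in the scanner files were taken, which gave 10 of 41174 probes and 8 of the 19825 genes in the fit. The genes were chosen by their group differences on these same arrays, so their own differences and adjusted p-values are given as a description and support nothing further. Whole lung RNA was measured on 12 single-colour arrays, with n = 4 in each of 3 groups: Rora mutant mice in cigarette smoke, wild type (WT) mice in cigarette smoke, and WT mice in room air. The labels give all mice as male C57Bl/6 of 12 weeks and set the smoke at 5 days a week for 4 months. They do not name the Rora allele, and Rora mutants kept in room air were not analysed here, and an effect of genotype cannot be told apart from an interaction with smoke. Replicates are labelled as biological.

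PPARs are nuclear receptors that bind fatty acids and their derivatives and, paired with a retinoid X receptor, switch on genes of fat uptake, storage and burning. Long-chain fatty acids enter mitochondria through carnitine palmitoyltransferase and are then shortened by the acyl-CoA dehydrogenases and their partners, while pyruvate dehydrogenase kinases hold back glucose oxidation. In lung, alveolar type II cells make surfactant lipid and alveolar macrophages clear it, and macrophages depend on PPAR gamma. Rora encodes another nuclear receptor, which binds a single half-site with a flanking stretch rich in A and T.

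The binding sequence that nuclear receptors share, the half-site AGGTCA, was looked for in the 250 bases before the start of each gene in RefSeq promoter windows of mouse build GRCm38.p6. A window was found for 6 of the 8 genes. The windows of Pdk4, Ucp3 and Cpt1a are shown because these genes had the 3 largest differences between Rora mutant smoke and WT room air among those with a window, with half-sites on either strand in capitals. Pdk4 lies at chr6:5496279-5496528 on the minus strand, Ucp3 at chr7:100472741-100472990 on the plus strand, and Cpt1a at chr19:3323051-3323300 on the plus strand, each window written in the direction of its gene.
Pdk4: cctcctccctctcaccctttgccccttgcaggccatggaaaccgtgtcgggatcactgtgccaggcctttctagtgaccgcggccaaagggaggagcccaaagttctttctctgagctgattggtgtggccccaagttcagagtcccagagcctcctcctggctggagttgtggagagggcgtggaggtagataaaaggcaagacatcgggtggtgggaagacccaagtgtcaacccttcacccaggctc
Ucp3: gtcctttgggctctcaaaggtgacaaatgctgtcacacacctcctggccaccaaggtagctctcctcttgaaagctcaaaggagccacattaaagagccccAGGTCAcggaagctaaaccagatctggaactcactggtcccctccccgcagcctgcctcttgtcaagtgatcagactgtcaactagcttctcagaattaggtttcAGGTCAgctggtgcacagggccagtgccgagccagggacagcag
Cpt1a: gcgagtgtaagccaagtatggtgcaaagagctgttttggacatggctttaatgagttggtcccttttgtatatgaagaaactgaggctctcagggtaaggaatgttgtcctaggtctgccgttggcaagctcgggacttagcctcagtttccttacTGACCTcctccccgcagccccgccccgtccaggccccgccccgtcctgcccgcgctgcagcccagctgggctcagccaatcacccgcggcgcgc
Ucp3 held 2 half-sites, 149 to 144 and 44 to 39 bases before its start, both on the strand of the gene. Cpt1a held 1, on the opposite strand (TGACCT), 94 to 89 bases before its start. Acadm also held 1 on the opposite strand, and Pdk4, Ppara and Ppard held none. Of all 32851 windows of the same length, 14.0% held a half-site, 0.0335% held the PPAR form with 2 half-sites 1 base apart (AGGTCANAGGTCA), and 0.609% held the ROR form (ANNTAGGTCA). The half-site is part of both longer forms, and no member window held either one, nor the glucocorticoid receptor core ACANNNTGT, which 5.84% of windows held. A match describes the letters and is not a binding site, and its absence says only that these letters are not in this window.

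Levels are log2 units over the 75th percentile of the array. Rora was −1.01 ± 0.10 in Rora mutant smoke lungs, against 1.18 ± 0.04 in WT smoke lungs and 1.10 ± 0.04 in WT room air lungs (SD, n = 4 each), which checks the genotype labels. All 3 endothelial and all 6 epithelial markers of lung were well above background on every array. Sex-linked genes went against the labels. Xist was −4.61 ± 1.26 in Rora mutant smoke lungs and −5.39 ± 2.09 in WT smoke lungs, against 4.04 ± 0.07 in WT room air lungs (SD, n = 4 each). Signal of the Y-linked Ddx3y, Kdm5d and Uty passed background on 4 of 4 Rora mutant smoke and 4 of 4 WT smoke arrays, against 0 of 4 in WT room air. Eif2s3y, also Y-linked, passed on 4 of 4 arrays of each smoke group and 2 of 4 in WT room air. In both comparisons with room air, smoke and this sex-linked difference cannot be told apart, and no room air array is without it. Each of the 3 slides held arrays of all 3 groups. In whole lung, fewer cells of a type and less RNA per cell cannot be told apart.

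**Figure D1:**
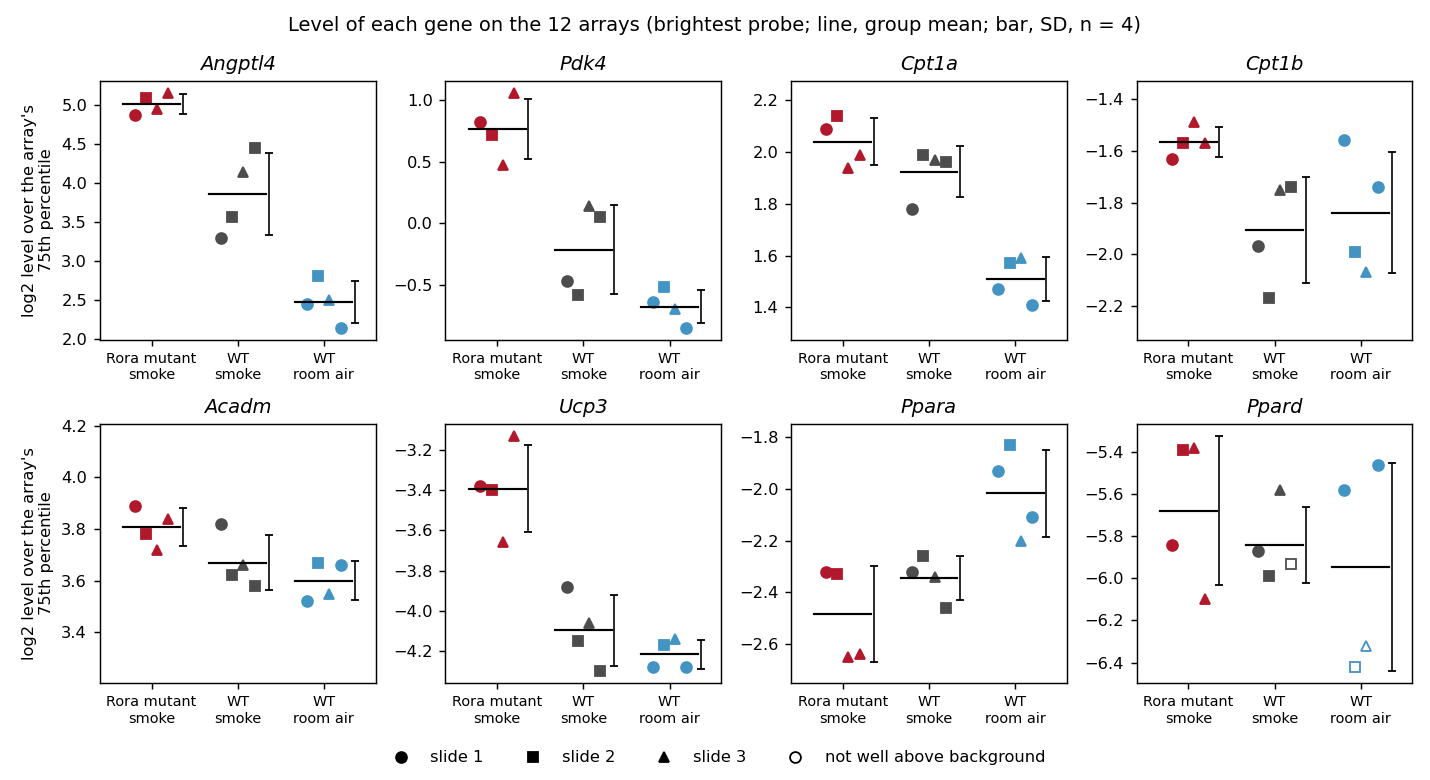
Level of each gene's brightest probe (log2 over the array's 75th percentile, vertical axis) on the 12 arrays, by group. Points are arrays, their shape gives the slide, open points were not well above background, lines are group means and bars the SD (n = 4); Angptl4 shows 3 groups with no overlap, and Pdk4 and Ucp3 have all 4 Rora mutant smoke arrays above the other 8.

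Angptl4 encodes a secreted inhibitor of lipoprotein lipase and is a target of all 3 PPARs. Its probe (A_51_P338443) lies at chr17:33381815-33381874 on the minus strand of build mm8. The 4 arrays gave 4.88, 5.09, 4.95 and 5.16 in Rora mutant smoke, 3.30, 3.57, 4.14 and 4.45 in WT smoke, and 2.46, 2.81, 2.51 and 2.15 in WT room air. The 3 groups did not overlap, with mutant smoke highest and room air lowest. The raw signal ran from 29820 to 38910 in Rora mutant smoke, from 9680 to 17140 in WT smoke and from 4635 to 6796 in WT room air, and no spot was saturated. The mean was higher in Rora mutant smoke than in WT smoke by 1.15 (SE 0.22, 2.23-fold, limma adjusted p = 0.0134). WT smoke was higher than WT room air by 1.39 (SE 0.22, 2.61-fold, limma adjusted p = 0.00432), and Rora mutant smoke higher than WT room air by 2.54 (5.81-fold). The SD over the arrays was 0.13 in Rora mutant smoke, 0.52 in WT smoke and 0.27 in WT room air. Within slides 1, 2 and 3 the mutant smoke minus WT smoke difference was 1.58, 1.08 and 0.91, so the direction held on each slide, though a slide holds a single array of at least 1 group.

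Pdk4 encodes a pyruvate dehydrogenase kinase that rises in fasting, with glucocorticoids and with PPAR activation. Its probe (A_51_P350453) lies at chr6:5433441-5433500 on the minus strand of mm8. It read 0.82, 0.72, 0.47 and 1.06 in Rora mutant smoke, −0.47, −0.58, 0.14 and 0.05 in WT smoke, and −0.64, −0.52, −0.70 and −0.85 in WT room air. All mutant arrays lay above all others, while WT smoke and room air overlapped. The mutant smoke mean was higher than WT smoke by 0.98 (SE 0.17, 1.97-fold, limma adjusted p = 0.00793) and higher than WT room air by 1.44 (2.71-fold, limma adjusted p = 0.000288). WT smoke against WT room air differed by 0.46 (SE 0.17, limma adjusted p = 0.162), which did not pass. The slide values of mutant smoke minus WT smoke were 1.29, 0.98 and 0.62.

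Ucp3 encodes a mitochondrial carrier of muscle and brown fat that follows fatty acid supply. Its probe (A_52_P380379) lies at chr7:100359864-100359923 on the plus strand of mm8. Its levels were −3.38, −3.40, −3.66 and −3.13 in Rora mutant smoke, −3.88, −4.15, −4.06 and −4.30 in WT smoke, and −4.28, −4.17, −4.14 and −4.28 in WT room air. The signal was dim, between 39.7 and 125 units, but well above background on all 12 arrays. Every mutant array was above every other array, and the WT groups overlapped. Mutant smoke was higher than WT smoke by 0.71 (SE 0.11, 1.63-fold, limma adjusted p = 0.00492) and higher than WT room air by 0.83 (1.77-fold, limma adjusted p = 0.000624). WT smoke minus WT room air was 0.12 (limma adjusted p = 0.640). The slide values of mutant smoke minus WT smoke were 0.50, 0.82 and 0.67. With normexp background correction mutant smoke minus room air was 0.42 and WT smoke minus room air −0.20. The medians over all genes were then 0.076 and −0.072.

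Cpt1a encodes the liver-type carnitine palmitoyltransferase, the rate-setting step of fatty acid entry into mitochondria. Its probe (A_51_P427674, chr19:3385374-3385433, plus strand, mm8) is spotted 10 times on each array. The arrays gave 2.09, 2.14, 1.94 and 1.99 in Rora mutant smoke, 1.78, 1.99, 1.97 and 1.96 in WT smoke, and 1.47, 1.57, 1.59 and 1.41 in WT room air. Both smoke groups lay wholly above room air and overlapped each other. WT smoke was higher than WT room air by 0.41 (SE 0.07, 1.33-fold, limma adjusted p = 0.00578), and Rora mutant smoke by 0.53 (1.45-fold, limma adjusted p = 0.000523). Rora mutant smoke minus WT smoke was 0.12 (limma adjusted p = 0.354). The second Cpt1a probe (A_52_P219753, chr19:3384629-3384688) gave 0.08 for mutant smoke minus WT smoke, 0.31 for WT smoke minus room air and 0.39 for mutant smoke minus room air, the same directions. On this probe WT smoke minus room air did not pass (limma p adjusted over all kept probes = 0.0765). Mutant smoke minus room air did (limma p adjusted over all kept probes = 0.0119). The median SD between the 10 spots was 0.0389, below the SD between mice of 0.0924.

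Cpt1b encodes the muscle form of the same enzyme. Its 2 probes lie at chr15:89244225-89244284 (A_51_P232913) and chr15:89244658-89244717 (A_52_P625508) on the minus strand of mm8. The first gave −1.63, −1.57, −1.49 and −1.57 in Rora mutant smoke, −1.97, −2.17, −1.75 and −1.74 in WT smoke, and −1.56, −1.99, −2.07 and −1.74 in WT room air. On this probe all mutant arrays were above all WT smoke arrays and overlapped room air. On the second probe the mutant arrays ran from −2.91 to −2.53, WT smoke from −3.27 to −2.89 and room air from −3.26 to −2.91, so that mutant smoke overlapped WT smoke and lay just above room air. Mutant smoke minus WT smoke was 0.34 (SE 0.12) on the first probe and 0.41 on the second, and the first had a limma adjusted p of 0.124. WT smoke minus WT room air was −0.06 on both probes.

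Acadm encodes the medium-chain acyl-CoA dehydrogenase, a classic target of PPAR alpha. Its probe (A_51_P319879, chr3:153860092-153860151, minus strand, mm8) gave 3.89, 3.78, 3.72 and 3.84 in Rora mutant smoke, 3.82, 3.62, 3.66 and 3.58 in WT smoke, and 3.52, 3.67, 3.55 and 3.66 in WT room air. The differences were small: 0.14 for mutant smoke minus WT smoke, 0.07 for WT smoke minus room air, and 0.21 for mutant smoke minus room air (SE 0.07, limma adjusted p = 0.0511). In the last, the 4 mutant arrays lay above the 4 room air arrays, and Acadm passed with slide as a block, where 6 members were called in place of 5.

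Neither receptor gene was called higher in any comparison. Ppara encodes the PPAR of liver, heart and brown fat, and its probe (A_51_P348334, chr15:85629291-85629350, plus strand, mm8) is spotted 10 times. It read −2.32, −2.33, −2.65 and −2.64 in Rora mutant smoke, −2.32, −2.26, −2.34 and −2.46 in WT smoke, and −1.93, −1.83, −2.20 and −2.11 in WT room air. Every smoke array was below every room air array, and the smoke groups overlapped. Rora mutant smoke minus WT room air was −0.47 (SE 0.10, limma adjusted p = 0.00997), WT smoke minus WT room air −0.33 (limma adjusted p = 0.10), and mutant smoke minus WT smoke −0.14 (limma adjusted p = 0.489). Normexp background correction turned the last to 0.19 and left −0.15 for mutant smoke minus room air, which did not pass. With that correction the medians over all genes also shifted, to 0.098 and 0.076 in these comparisons, against 0.002 and −0.006 without it. The mutant arrays split by slide: −2.32 and −2.33 on slides 1 and 2, and −2.65 and −2.64 on slide 3. Ppard, the widely expressed PPAR, had a dim probe (A_51_P271556, chr17:28027240-28027299, plus strand, mm8). It was well above background on 4 of 4 Rora mutant smoke, 3 of 4 WT smoke and 2 of 4 WT room air arrays. Its levels ran from −6.10 to −5.38 in Rora mutant smoke, from −5.99 to −5.58 in WT smoke and from −6.42 to −5.46 in WT room air, and the groups overlapped in all 3 comparisons, with differences of 0.16, 0.11 and 0.27.

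**Figure D2:**
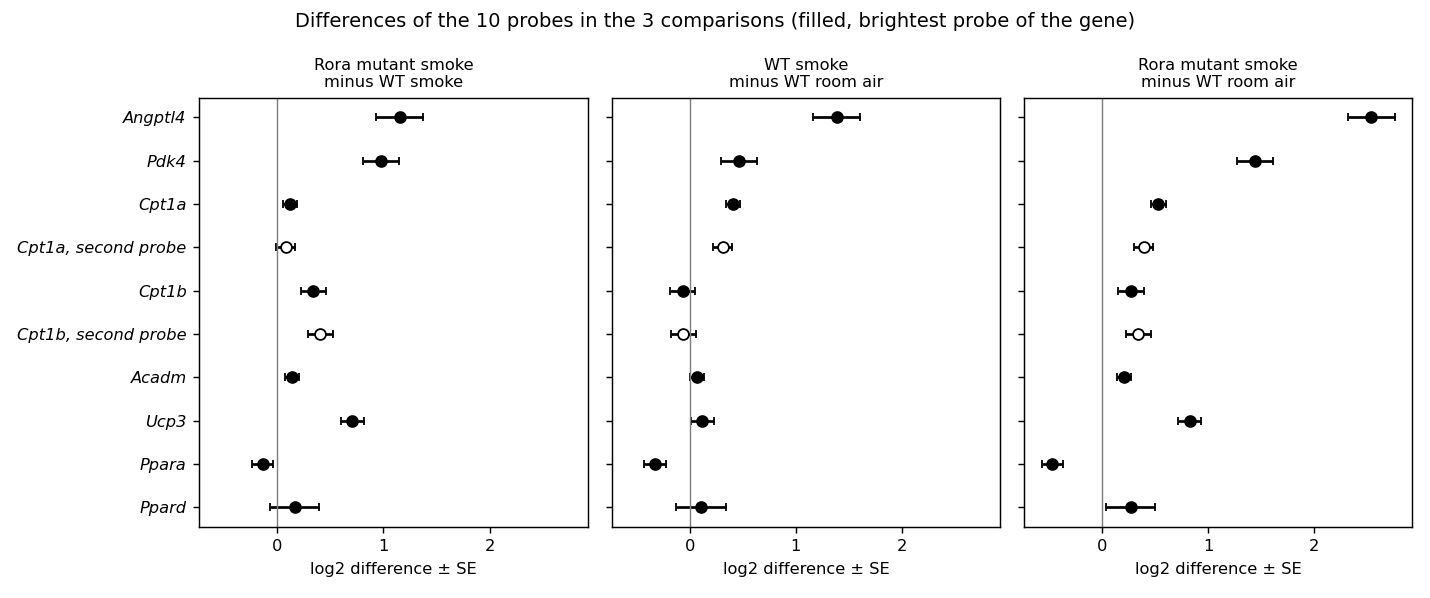
Difference of each of the 10 probes (log2, horizontal axis; points with SE bars from the limma fit) in the 3 comparisons, filled for the gene's brightest probe. Angptl4 is at 1.15, 1.39 and 2.54, while Ppara is at −0.14, −0.33 and −0.47. Normexp background correction turned the −0.14 of Ppara to 0.19, where the median over all genes was 0.098.

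Over the 8 genes, 3 were higher and 0 lower past the threshold in Rora mutant smoke against WT smoke, with a median difference of 0.25; of all genes, 2.48% were called higher and 3.56% lower, and their median was 0.00. WT smoke against WT room air had 2 higher and 0 lower with a median of 0.11, beside 2.30% of all genes called higher and 2.55% lower. Rora mutant smoke against WT room air had 4 higher and 1 lower with a median of 0.40, beside 6.68% of all genes higher and 10.0% lower. Nothing is read from these counts, since the same contrasts chose the genes. With normexp background correction 0, 1 and 2 members passed in the 3 comparisons, and the limma adjusted p of mutant smoke minus WT smoke was 0.145 for Angptl4, 0.116 for Pdk4 and 0.623 for Ucp3. The comparisons share arrays: WT smoke stands in the first and second, and room air in the second and the last.

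Within groups, no pair of member genes varied together past the adjusted threshold. Deviations of Angptl4 and Pdk4 from the group means correlated with Pearson r = 0.80 (exact permutation within groups, two-sided p = 0.024) and Spearman rho = 0.78 over 12 arrays. Of 21 pairs among 7 genes this was the highest, and its Benjamini-Hochberg adjusted exact permutation p was 0.325. Without the 2 arrays farthest from the median in Angptl4, WT smoke replicates 1 and 4, r was 0.79. Acadm and Ucp3 had r = 0.67 (adjusted exact permutation p = 0.325), and 0 of 21 pairs passed after adjustment. Among 18230 genes well above background on all arrays, Duxbl1 (0.91) and Sesn2 (0.91) were nearest to Angptl4 by r of the deviations over 12 arrays. Those nearest to Ucp3 were Crebrf (0.90), Qsox1 (0.90) and Ubxn10 (0.89). With clone names left out, Lrch2 (0.92) and Tent5b (0.91) were nearest to Pdk4, Txndc17 (0.95) and Cpq (0.93) to Cpt1a, and Olfr159 (0.95) and Rtn2 (0.93) to Cpt1b. Acadm was followed most closely by Ino80b (0.96), Tubb4b (0.93) and Gjb5 (0.91), and Ppara by Ddx6 (0.95) and Pfdn1 (0.93). These are the highest of very many values and describe these arrays only.

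Beyond the 8 genes, 98 further genes of the pathway were listed and 94 were in the fit. Rora mutant smoke against WT smoke had 7 of the 94 higher and 3 lower (10.6% called), WT smoke against WT room air 8 higher and 2 lower (10.6%), and Rora mutant smoke against WT room air 21 higher and 4 lower (26.6%). Their median differences were 0.03, 0.04 and 0.07. Of all genes, 2.48% were called higher and 3.56% lower in Rora mutant smoke against WT smoke. In WT smoke against WT room air these shares were 2.30% and 2.55%, and in Rora mutant smoke against WT room air 6.68% and 10.0%. With normexp background correction 0, 2 and 2 of the 94 passed.

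Between Rora mutant smoke and WT smoke, 6 of 21 measured targets rose and 0 fell, with a list median of 0.27. Of all genes, 2.48% were called higher and 3.56% lower there. Fabp4, a fatty acid carrier of fat cells and macrophages, averaged 3.93 ± 0.36 in Rora mutant smoke, against 2.91 ± 0.42 in WT smoke (SD, n = 4 each), a difference of 1.02 (limma adjusted p = 0.0265). Its other 2 probes gave 1.10 and 1.17. Fabp1, the liver-type carrier, rose by 0.76 (limma adjusted p = 0.00649), with 1.11 ± 0.22 in Rora mutant smoke, 0.35 ± 0.21 in WT smoke and 1.01 ± 0.11 in WT room air (SD, n = 4 each). The lipid droplet protein Cidec rose by 0.50, lipoprotein lipase (Lpl), the enzyme that ANGPTL4 inhibits, by 0.48, the fatty acid transporter Cd36 by 0.27 and the droplet coat protein Plin2 by 0.24 (limma adjusted p = 0.0281, 0.0474, 0.0213 and 0.0353 in that order). Of the 6 targets that rose, Fabp1 passed in 20 of 21 alternative settings, Cd36 in 15, Cidec and Fabp4 in 12, Plin2 in 11 and Lpl in 5. With slide as a block the calls of Fabp4, Cidec and Lpl were lost. Leaving out 1 array brought the count over the 94 genes, 10 on all arrays, to 5 (without Rora mutant smoke replicate 1 or WT smoke replicate 2), 4 (without WT smoke replicate 3), 3 (without WT smoke replicate 4) or 2 (without Rora mutant smoke replicate 4 or WT smoke replicate 1). The count of targets that rose, 6 on all arrays, was 1 without Rora mutant smoke replicate 1, 2 without Rora mutant smoke replicate 4 or WT smoke replicate 1, 2 or 4, and 3 without Rora mutant smoke replicate 2 or WT smoke replicate 3.

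In WT smoke against WT room air, 2 of 21 targets rose and 1 fell, beside 2.30% of all genes higher and 2.55% lower. Txnip, which restrains glucose uptake, rose by 0.56 (limma adjusted p = 0.00578), the mitochondrial thioesterase Acot2 rose by 0.40, and Fabp1 fell by 0.66 (limma adjusted p = 0.0121). Acot2 passed in 7 of 21 alternative settings and was lost with slide as a block. The count over the 94 genes, 10 on all arrays, was 5 without WT room air replicate 4 or WT smoke replicate 3 and 6 without WT smoke replicate 2; the count of targets that rose was 1 when any one of 9 arrays was left out. In Rora mutant smoke against WT room air, 6.68% of all genes were called higher and 10.0% lower. There 12 of 21 targets rose and 0 fell, with a median of 0.38. The smallest p-values were those of Txnip (0.90), Plin2 (0.43), Lpl (0.75) and Ucp2 (0.38), all log2 differences, and their limma adjusted p ran from 0.000131 to 0.00273. Without WT room air replicate 2 the count over the 94 genes was 16, against 25 on all arrays. Fgf21, Aqp7 and Cyp4a14 were below the filter.

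Mitochondrial beta-oxidation had 0 of 21 genes past the threshold in Rora mutant smoke against WT smoke, where 1 had an unadjusted p under 0.05, and the median was 0.00. In the same comparison 2.48% of all genes were called higher and 3.56% lower. In WT smoke against WT room air 2 of 21 rose, the isomerase Eci2 by 0.36 and the thiolase Acaa2 by 0.28. The probes of Hadha, which was not called, disagreed. Its brightest averaged −0.40 in WT smoke and −0.23 in WT room air, while the other gave 0.32 (SE 0.07) for WT smoke minus room air. Against WT room air, Rora mutant smoke had 3 of 21 that rose, Acadl by 0.41, Eci2 by 0.35 and Acaa2 by 0.18, beside 6.68% of all genes called higher there and 2.30% in WT smoke against WT room air. The Acaa2 call passed in 3 of 21 alternative settings, and was lost with slide as a block. Cpt2, the inner-membrane partner of CPT1, differed by −0.01, 0.13 and 0.12 in the 3 comparisons in the same order as above and passed in none.

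Of 20 peroxisomal genes, 1 fell in Rora mutant smoke against WT smoke and 2 rose in WT smoke against WT room air. Of all genes, 3.56% were called lower in the former and 2.30% higher in the latter. Acox2, which acts on branched chains and bile acid precursors, averaged 0.36 ± 0.10 in Rora mutant smoke, 0.72 ± 0.07 in WT smoke and 0.08 ± 0.18 in WT room air (SD, n = 4 each). It fell by 0.36 in Rora mutant smoke against WT smoke (limma adjusted p = 0.033) and rose by 0.64 in WT smoke against WT room air (limma adjusted p = 0.00146). The fall passed in 11 of 21 alternative settings and was lost with slide as a block. Mutant smoke against room air had 4 of 20 higher, among them Acox2 at 0.28, Ech1 at 0.26 and Acox3 at 0.20, beside 6.68% of all genes. These 3 calls passed in 5, 7 and 13 of 21 alternative settings, and that of Acox2 was lost with slide as a block. Among 5 ketone body genes Oxct1, which starts ketone use, fell in all 3 comparisons, by 0.29, 0.30 and 0.59, and Bdh1 fell by 0.37 in Rora mutant smoke against WT room air. Against WT room air, 2.55% of all genes were called lower in WT smoke and 10.0% in Rora mutant smoke. The first 2 Oxct1 calls passed in 13 of 21 alternative settings each.

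Among 13 other receptors and partners, Pparg, the PPAR of fat cells and alveolar macrophages, averaged 1.05 ± 0.14 in Rora mutant smoke, 0.93 ± 0.05 in WT smoke and 0.51 ± 0.06 in WT room air (SD, n = 4 each). It rose by 0.42 in WT smoke against WT room air (limma adjusted p = 0.00539) and by 0.54 in Rora mutant smoke against WT room air, while mutant smoke minus WT smoke was 0.12 (limma adjusted p = 0.359). In Rora mutant smoke against WT smoke, Rxrg rose by 0.49 and the coactivator gene Ppargc1a fell by 0.39. Against WT room air, Ppargc1a in Rora mutant smoke fell by 0.47 and Med1 by 0.28. The other Ppargc1a probe gave −0.01 and 0.14 in these comparisons, and the other 2 Med1 probes 0.01 and −0.04, so the probes of both genes disagreed. The Ppargc1a call against WT smoke was lost with slide as a block. Of the pyruvate dehydrogenase genes, 0 of 11 passed in Rora mutant smoke against WT smoke by limma, with 0 at an unadjusted p under 0.05. In that comparison 2.48% of all genes were called higher and 3.56% lower. The shares in WT smoke against WT room air were 2.30% higher and 2.55% lower. Pdp1, a phosphatase that counters the kinases, rose by 0.28 in WT smoke against WT room air, and Pdk1 rose by 0.20 in Rora mutant smoke against WT room air. These calls passed in 4 and 8 of 21 alternative settings and were lost with slide as a block. Of the 4 other uncoupling proteins, Ucp2 alone passed, in Rora mutant smoke against WT room air. In that comparison 6.68% of all genes were called higher and 10.0% lower.

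**Figure D3:**
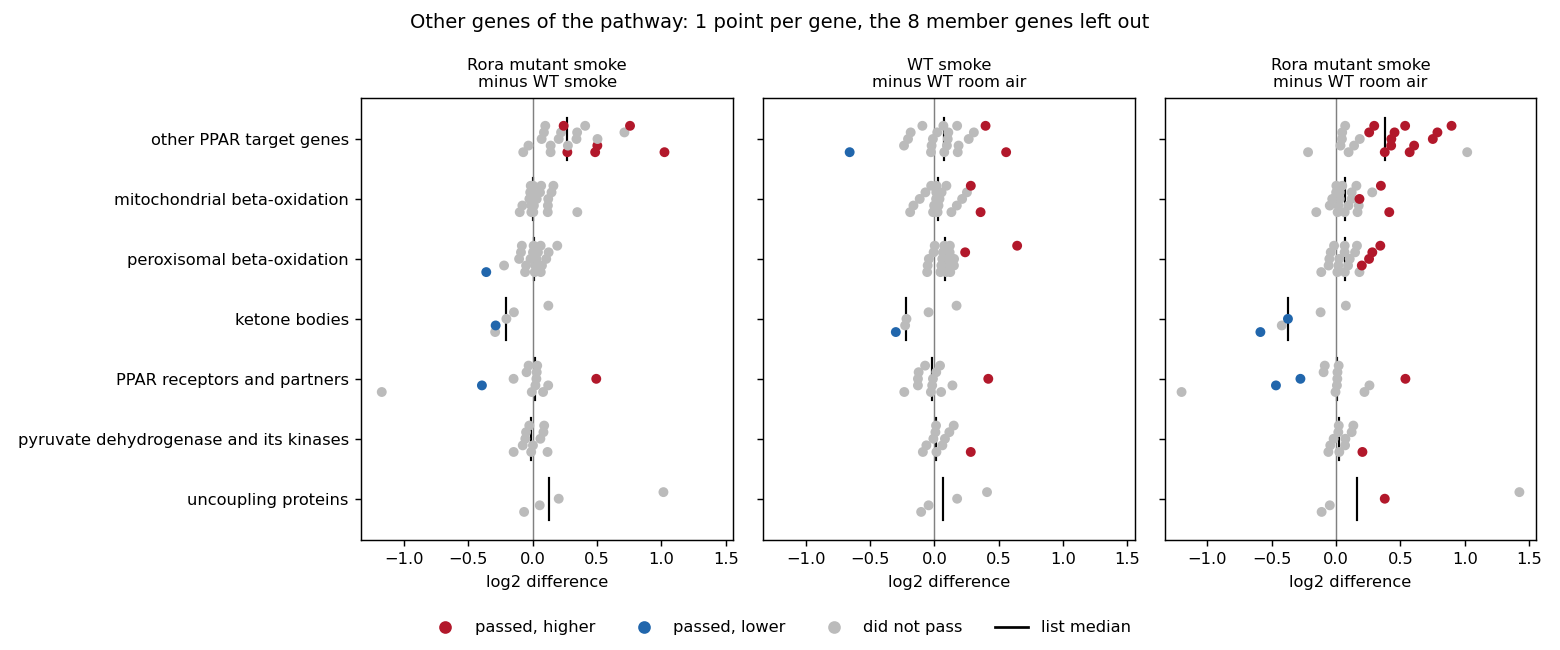
Log2 difference (horizontal axis) of the 94 other pathway genes by list in the 3 comparisons. Each list has 1 point per gene, coloured where it passed the threshold, and a line at its median. Ucp2 is drawn under both other PPAR targets and uncoupling proteins. Other PPAR targets had 6 higher and 0 lower in Rora mutant smoke against WT smoke, and mitochondrial beta-oxidation had 0 of either. Of all genes, 2.48% were called higher and 3.56% lower in that comparison.

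Genes that also answer to glucocorticoids or low oxygen were listed because glucocorticoids act on Pdk4 and Angptl4 and low oxygen acts on Angptl4. Of all genes, 2.48% were called higher in Rora mutant smoke against WT smoke. Against WT room air, 2.30% were called higher in WT smoke and 6.68% in Rora mutant smoke. Of 7 glucocorticoid-responsive genes, 2 rose in Rora mutant smoke against WT smoke: Fkbp5 by 1.65 on its brightest probe, with 0.39 and 0.44 on its other 2, and Cdkn1a by 0.47. In WT smoke against WT room air Sgk1 rose by 0.37, and in Rora mutant smoke against WT room air Fkbp5, Cdkn1a and Sgk1 rose. Of 9 hypoxia-responsive genes, Bnip3 alone passed, by 0.25 in WT smoke and 0.32 in Rora mutant smoke, each against WT room air. The part of these signals in the differences of Pdk4 and Angptl4 was not tested.

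Markers of other cell types were also counted. Of all genes, 2.48% were called higher in Rora mutant smoke against WT smoke. In Rora mutant smoke against WT room air, 6.68% were called higher and 10.0% lower. Of 7 alveolar macrophage markers, 4 rose in Rora mutant smoke against WT smoke: Siglecf by 0.82, Marco by 0.81, Chil3 by 0.73 and Atp6v0d2 by 0.62. The summed level of the list, in multiples of the array's 75th percentile, ran from 116 to 179 in Rora mutant smoke, from 87.1 to 101 in WT smoke and from 85.0 to 92.6 in WT room air. Skeletal muscle had 4 of 9 markers higher in the same comparison, with sums from 2.82 to 3.39 in Rora mutant smoke, from 1.93 to 2.88 in WT smoke and from 2.76 to 3.62 in WT room air. Brown adipocytes had 2 of 4 higher, with sums from 2.88 to 4.09, from 2.10 to 2.89 and from 2.65 to 3.09 in the groups in that order. Adipocytes had 1 of 5 higher, with sums from 14.4 to 17.8 in Rora mutant smoke, from 5.79 to 20.2 in WT smoke and from 12.9 to 21.8 in WT room air. Cardiac muscle had 1 of 10 higher, with sums from 113 to 139 in Rora mutant smoke, from 74.6 to 108 in WT smoke and from 103 to 140 in WT room air. The median difference in Rora mutant smoke against WT smoke was 0.62 for macrophages, 0.37 for cardiac muscle and 0.45 for skeletal muscle. It was 0.97 for adipocytes and 0.56 for brown adipocytes, beside 0.002 over all genes. Differences were above 0 for 7 of 7 macrophage, 10 of 10 cardiac muscle and 8 of 9 skeletal muscle markers. The same held for 5 of 5 adipocyte and 4 of 4 brown adipocyte markers. The macrophage and cardiac muscle sums did not overlap between the smoke groups, and the other 3 did. These sums add linear signal, so the brightest marker weighs most. In Rora mutant smoke, mean log2 levels were 6.90 for Chil3 and 4.20 for Marco, the next brightest macrophage marker. For adipocytes they were 3.58 for Cfd and 0.79 for Adipoq, and for cardiac muscle 5.66 for Myl7 and 4.10 for Tnnt2. Pvalb of skeletal muscle, Adig of adipocytes and Elovl3 of brown adipocytes were well above background on no array. The part of these cell types in the differences of the member and pathway genes was not tested. In Rora mutant smoke against WT room air, skeletal muscle had 0 markers higher and 2 lower, and cardiac muscle, adipocytes and brown adipocytes had 0 higher. In that comparison 6 of 7 macrophage markers rose. In WT smoke against WT room air, the median difference was −0.23 for cardiac muscle and −0.395 for skeletal muscle markers. It was −0.35 for adipocytes, −0.19 for brown adipocytes and 0.06 for macrophages. Cardiac muscle, skeletal muscle and adipocytes each had 1 marker lower and 0 higher, beside 2.55% of all genes lower. Brown adipocytes had 0 of either, and macrophages 1 higher, beside 2.30% of all genes higher.

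**Figure D4:**
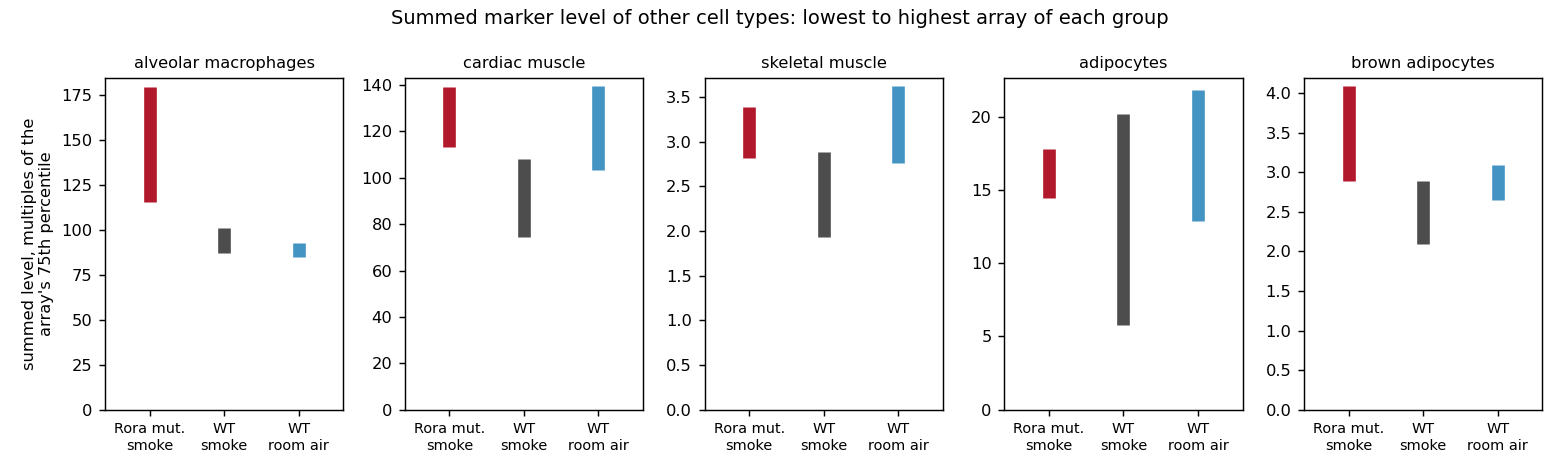
Summed level of the markers of 5 other cell types (multiples of the array's 75th percentile, vertical axis from 0), each bar running from the lowest to the highest array of a group. The macrophage sum is 116 to 179 in Rora mutant smoke, above the 87.1 to 101 of WT smoke. Sums add linear signal, so the brightest marker weighs most, which is Chil3 for macrophages.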

How the data were processed

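The 12 Agilent arrays of design 4x44K were scanned with Feature Extraction 9.5.3.1, per the submitters' processing notes. Per the file headers, the signal used here is a linear intensity from which background was subtracted, not scaled across arrays. Uncorrected spot means and local backgrounds were also deposited as intensities, and the flags are deposited as other values of 0 or 1. The authors' deposited value table holds log2 intensity with a common median of 6.80, and it was used as an alternative only. The share of spots well above background was 70.1% to 74.8%. Precision is limited by how many arrays there are.

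Replicate spots of 43379 were averaged to 41174 probes on log2, outlier spots left out, and the log2 75th percentile of the array was subtracted. Probes well above background on at least 4 arrays with values on 3 or more arrays per group were kept (30189), and the brightest kept probe stood for each of 19825 genes. All 10 member probes passed this filter. Names were updated by accession (24375 probes), symbol (6301) or synonym (2426) in a RefSeq table, and 8072 kept the name in the file. The fit by limma 3.58.1 (R 4.3.3, with version 1.17.8 of data.table) gave group means over all 12 arrays; calls are two-sided, at a Benjamini-Hochberg p below 0.05 across genes. The fit was tested on simulated data. Python 3.11.15, scipy and matplotlib made the pair tests (13824 permutations) and plots. Promoter windows came from RefSeq, GRCm38.p6; probe positions are those of the files, mm8, without exon or UTR placement.

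The members, gene lists and tests were chosen with earlier results of these data known. All member probes are named; in each pathway list up to 4 genes with the smallest p among those past the threshold in a comparison are named, plus Pparg, Cpt2, Cd36 and Plin2; further called genes were named after their values were seen. A few genes chosen this way are not reported here but remain in all counts. Alternatives were quantile scaling, normexp background correction (offset 50), the authors' table, other filters on dim probes, slide or replicate blocks, fits on 8 arrays, and leaving out each array.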

Additional observations from a re-analysis of the deposited data

Results flagged for a closer look

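Of 30 groups of 4 arrays tested, 3 had 1 array far from the other 3, by a gap over Dixon's critical share of the group's range. Chance gives such a gap in about 1 in 20 groups. Cpt1a probe A_51_P427674 was 1.78 in WT smoke replicate 1, below the other 3 arrays at 1.96 to 1.99. Cpt1a probe A_52_P219753 was −0.91 in Rora mutant smoke replicate 3, against −0.65 to −0.63 on the others. Cpt1b probe A_52_P625508 was −2.89 in WT smoke replicate 3, against −3.27 to −3.20 on the others.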

How the results depend on the processing

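No difference named here changed its direction past the threshold. Normexp background correction gave fewer calls. For Rora mutant smoke against WT smoke it gave 26 genes against 1198, 0 members against 3, 0 other pathway genes against 10 and 0 other PPAR targets against 6. For WT smoke against WT room air it gave 53 against 962, 1 against 2, 2 against 10 and 1 against 2, and for Rora mutant smoke against WT room air 159 against 3315, 2 against 5, 2 against 25 and 1 against 12. The cause was not tested. Without a filter on dim probes the mutant smoke against WT smoke counts were 688 genes, 3 pathway genes and 2 targets; WT smoke against room air had 563 genes and 1 target; mutant smoke against room air had 16 pathway genes. With only the 8 arrays compared, mutant smoke against WT smoke had 745 genes, 4 pathway genes and 2 targets, and WT smoke against room air 1 target. With slide as a block there were 6 pathway genes in mutant smoke against WT smoke and 1 target in WT smoke against room air. Correlations of same-numbered arrays of different groups ran from −0.0964 to 0.224, and those of differently numbered arrays from −0.200 to 0.206. Of the same-numbered pairs 9 share a slide and 3 do not, so whether the numbers pair the arrays cannot be settled. The replicate block gave 6 pathway genes and 1 target in WT smoke against room air. Leaving out 1 array at a time gave, for mutant smoke against WT smoke, 579 to 1143 genes, 3 to 3 members, 2 to 9 pathway genes and 1 to 7 targets. For WT smoke against room air it gave 553 to 960, 2 to 2, 5 to 9 and 1 to 2, and for mutant smoke against room air 2224 to 3227, 5 to 6, 16 to 25 and 9 to 12. Angptl4, Pdk4 and Ucp3 passed in 20 of 21 settings in mutant smoke against WT smoke. Dim probes limit Ppard and Ucp3.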
